A study of Homo sapiens with 44 samples.

Results

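The SR and hnRNP genes encode 2 families of RNA-binding proteins that steer splice-site choice. They were taken here as every row of the count tables whose gene symbol is SRSF followed by a number, begins with HNRNP, or is TRA2A or TRA2B. The rule found 41 of 19923 rows: 14 SR genes (SRSF1 to SRSF12 and the SR-like TRA2A and TRA2B) and 27 hnRNP genes. The libraries come from human neuroblastoma cells treated with STM2457, a small-molecule inhibitor of METTL3, the catalytic subunit of the methyltransferase that writes N6-methyladenosine (m6A) into messenger RNA. Poly(A)-selected RNA was fragmented and sequenced either directly (input) or after pull-down with an antibody against m6A (RIP), in 4 experiments with 44 libraries in all. Kelly cells, a MYCN-amplified line labelled wild type, received 8 µM STM2457 or DMSO for 1 day or for 6 days, and NGP cells, a second MYCN-amplified line labelled wild type, received the same dose or DMSO for 6 days, with 3 libraries in each group. In the fourth experiment nude mice of both sexes, whose age the labels do not give, carried subcutaneous Kelly tumours and received 50 mg/kg STM2457 into the peritoneum every day for 14 days, or the vehicle labelled DMSO, with 2 libraries in each group. Each cell model is 1 established line. The labels do not say whether replicate libraries came from separate cultures, so p-values measure only the spread between these samples. In bulk libraries fewer cells of a type and less RNA per cell cannot be told apart.

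SR proteins carry a domain rich in arginine and serine and mostly promote inclusion of the exons they bind, whereas hnRNP proteins coat nascent transcripts and often act against inclusion. Many genes of both families control their own level through alternative splicing of conserved exons that sends the transcript to nonsense-mediated decay. Several family members are tied to m6A itself: HNRNPC and HNRNPA2B1 have been described as binding RNA in an m6A-dependent way, and SRSF3 and SRSF10 as partners of the nuclear m6A reader YTHDC1.

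The libraries held between 2144870 and 36497858 assigned counts, with the xenograft inputs among the shallowest at 2144870 to 7271929. The members took 0.9 to 1.45% of the counts in the input libraries. In RIP libraries their share was 0.55 to 0.79% in both Kelly cell experiments, 0.59 to 1.55% in the xenografts and 1.72 to 2.4% in NGP. The biological coefficient of variation of the RIP and input fit was 0.398 for Kelly cells at 1 day, 0.52 at 6 days, 0.253 for NGP and 0.99 for the xenografts, so the xenograft values carry by far the largest errors. The 2 xenograft DMSO RIP libraries stood apart from each other: HNRNPK had 120.2 CPM (the count scaled to the normalised library total) in the first and 11.7 in the second. Their STM2457 counterparts differed as widely, with 1.33 and 180.4 CPM for the same gene. All 8 neuroblastoma markers were at 1 CPM or above in every input group other than NGP with DMSO, where 7 were, and 14 stroma and blood genes summed to 84.1 to 195 CPM, of which 3 to 7 were at 0 in a group (7 in the xenografts, COL1A2, LUM and DCN among them). Each experiment sits in its own processing folder per the file headers, so cell line, duration and experiment batch cannot be told apart.

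Of the members, 36 passed the filter on low counts in both Kelly cell experiments and in the xenografts, and 37 in NGP, where HNRNPCL1 was added on 5 to 16 counts per input library. HNRNPCL2, HNRNPCL3, HNRNPCL4 and the read-through gene HNRNPUL2-BSCL2 had 0 to 2 counts per library and were not tested. Counting was by exons without a stated strand setting, and part of the exon bases of some members also belong to another gene. This share was 46.7% for SRSF9 and 36.7% for SRSF2, whose neighbours GATC and MFSD11 lie on the opposite strand, and 15.8% for HNRNPH2, which overlaps a read-through gene. It was 44.3% for HNRNPUL2, which overlaps HNRNPUL2-BSCL2, and 32.7% for SRSF1, which overlaps AC015813.2 on the same strand. HNRNPA1, HNRNPA1L2 and HNRNPA1P48 are near-identical copies, as are HNRNPC and the HNRNPCL genes, so the division of reads among them is uncertain.

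Measured per base of annotated exon, the hnRNP genes held the top of the order in all 4 experiments. TPM is a count divided by the gene's summed exon length and scaled to the library's sum of such values. That length can exceed that of 1 transcript, as for HNRNPU with 22512 against 6867 bases, so the order depends on it. In Kelly cells given DMSO for 1 day, HNRNPA1, a shuttling repressor of exon inclusion, stood at 891.6 ± 24.5 TPM (mean ± SD, n = 3). HNRNPA2B1, its close relative, was at 687 ± 38.8 and HNRNPAB at 631.2 ± 10.8. The highest SR gene was SRSF7, at 351.5 ± 18.1 TPM, and the lowest members named were SRSF1 at 38.8 ± 11.5 and SRSF12 at 13. In the 6-day Kelly experiment the order at the top changed, with HNRNPAB at 960 ± 18.6 TPM and HNRNPA1 at 533.4 ± 17.8, while SRSF9 led the SR genes at 354.8 ± 5.1. In NGP HNRNPAB stood at 1106.6 ± 195.9 TPM, HNRNPA1 at 793.8 ± 58.5 and SRSF7 at 362 ± 70.3. In the xenografts the 2 leading genes were not separated: HNRNPA1 libraries read 648.1 and 763.1 TPM and HNRNPAB libraries 651 and 673.8. SRSF1, a founding SR protein, was among the lowest in every experiment, at 7.33 ± 0.374 TPM in the 6-day Kelly inputs, 15.6 in NGP and 7.93 in the xenografts. Of its exon bases 32.7% also belong to another gene, so its level may be undercounted.

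The HNRNPF and HNRNPH genes encode close relatives that bind runs of G near splice sites, and they recur in the results because their transcripts behaved unlike each other. HNRNPF lies on the minus strand of chromosome 10 (43385617 to 43409166, GRCh38), and its whole coding sequence sits in 1 exon of 2319 bases. HNRNPH2 also has 1 coding exon, of 2198 bases. HNRNPH1, on the minus strand of chromosome 5 (179614178 to 179634784), has 12 coding exons and HNRNPH3 has 9, in the GENCODE 44 transcript models. The sequences around the first GGACT of each coding region are shown because this common m6A consensus word falls at the same place in all 4 genes, but in exons of very different length. Each stretch has 29 bases of the transcript strand, 5′ to 3′, read from GRCh38 with GENCODE 44, with GGACT in capitals.
HNRNPF, chr10:43387520-43387548, minus strand, coding exon of 2319 bases: gtgcggcttcgaGGACTcccatttggatg
HNRNPH2, chrX:101412325-101412353, plus strand, coding exon of 2198 bases: gtccggcttagaGGACTcccatttggctg
HNRNPH1, chr5:179620924-179620952, minus strand, coding exon of 144 bases: gtacggcttagaGGACTtccctttggatg
HNRNPH3, chr10:68337273-68337301, plus strand, coding exon of 135 bases: gtacgacttcgtGGACTaccatttggttg
HNRNPF matched HNRNPH2 at 26 of the 29 positions, HNRNPH1 at 25 and HNRNPH3 at 24. A match to these letters is a description of the sequence and does not show that the base is methylated.

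The first question was how STM2457 changed the level of the transcripts in the inputs. After 1 day in Kelly cells, HNRNPF, HNRNPH2 and SRSF8 rose and HNRNPH1, HNRNPH3, HNRNPC, HNRNPK and HNRNPD fell, and each of these changes was under 1.5-fold. The 3 members that rose of 36 tested compare with 9.41% of all 13246 genes tested, and the 5 that fell with 8.06% (quasi-likelihood test of edgeR with p adjusted by Benjamini-Hochberg, threshold 0.05). The SR genes gave 1 rise and no fall among 14, and the hnRNP genes 2 rises and 5 falls among 22. The median log2 change was 0.00 for SR genes, -0.07 for hnRNP genes and 0.01 for all genes.

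SRSF8, an SR protein gene with 1 coding exon on chromosome 11 (95067197 to 95071224, plus strand), read 35, 39.2 and 40.2 CPM in the 1-day DMSO inputs and 49.4, 44.4 and 50.5 CPM with STM2457. Every treated library lay above every control. The log2 change was 0.34 ± 0.08 (SE, edgeR adjusted p = 0.00733). SRSF3 and SRSF10, the partners of YTHDC1, and SRSF1 were not called, with log2 changes of -0.04, -0.00 and 0.01. The SRSF3 libraries overlapped, at 321.9, 330.9 and 356.2 CPM with DMSO and 335.1, 332.1 and 315.9 CPM with STM2457. SRSF1 varied widely within the DMSO group, at 43.4, 55.5 and 76.5 CPM, which spans its 3 treated values of 63.2, 63.2 and 50.4 CPM.

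HNRNPF rose at 1 day from 298.2, 287.4 and 278.8 CPM to 366.2, 344.9 and 368.1 CPM. HNRNPH1 fell from 482.7, 478.9 and 501.1 CPM to 377.3, 381.2 and 372.7 CPM. In neither gene did the groups overlap, and the 2 paralogs moved in opposite directions. The log2 change was 0.32 ± 0.05 for HNRNPF (1.25-fold, edgeR adjusted p = 0.000138) and -0.37 ± 0.04 for HNRNPH1 (0.773-fold, edgeR adjusted p = 1.33e-05). HNRNPH2, the other family member with 1 coding exon, read 171.6, 164.9 and 180.0 CPM with DMSO and 190.8, 203.0 and 205.0 CPM with STM2457, a log2 change of 0.21 ± 0.05 (edgeR adjusted p = 0.00737). HNRNPH3 read 188.8, 179.5 and 183.6 CPM against 156.2, 157.8 and 162.5 CPM, a change of -0.21 ± 0.05 (edgeR adjusted p = 0.00492). Within this family the pair with 1 coding exon thus rose and the pair with several fell. Of the other tested members with 1 coding exon, SRSF8 rose, while HNRNPA0 (0.09) and HNRNPA1L2 (-0.09) were not called.

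HNRNPC, which packages nascent RNA as a tetramer and binds U-rich stretches, fell from 738.0, 706.0 and 767.9 CPM to 634.2, 666.2 and 622.4 CPM at 1 day. All 3 treated libraries were below all controls (log2 change -0.20 ± 0.04, edgeR adjusted p = 0.00384). HNRNPK, a binder of C-rich RNA, changed by -0.15 ± 0.04 (edgeR adjusted p = 0.0198), from 489.2, 481.9 and 505.4 CPM to 448.5, 444.4 and 441.8 CPM. Its call was lost without any 1 of the 3 STM2457 libraries (adjusted p 0.0718 to 0.0808). HNRNPD, also called AUF1, a factor in decay of AU-rich messages, changed by -0.13 ± 0.04 (edgeR adjusted p = 0.0464). HNRNPA1 and HNRNPA2B1 were not called, at -0.05 and -0.04. The count of called members ranged from 6, without any 1 STM2457 library, to 10, without the first DMSO library, where 9.32 to 11.1% and 14.9% of all genes were called. With all 22 inputs in 1 fit, where the more variable xenograft and NGP inputs share the estimate of spread, no member was called at 1 day and HNRNPF had an adjusted p of 0.598. Calls fell over the whole table in that fit, to 26 of 14224 genes.

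After 6 days in Kelly cells HNRNPF and HNRNPUL1 rose and HNRNPD and SRSF7 fell. The 2 members that rose of 36 compare with 11.9% of 12773 genes tested, and the 2 that fell with 14.7%, so both shares were below those of all genes. HNRNPF read 198.9, 199.8 and 198.6 CPM with DMSO and 274.3, 283.6 and 259.5 CPM with STM2457. The 3 controls were nearly equal and all treated libraries lay above them (log2 change 0.45 ± 0.06, 1.37-fold, edgeR adjusted p = 3.4e-05). With all 22 inputs in 1 fit HNRNPF was the 1 member called, beside 5.56% of 14224 genes. HNRNPUL1, a relative of the scaffold protein HNRNPU, rose from 411.3, 397.9 and 399.4 CPM to 463.1, 436.6 and 503.3 CPM (0.21 ± 0.06, edgeR adjusted p = 0.0217). HNRNPD read 912.8, 961.0 and 936.4 CPM against 839.7, 776.5 and 605.0 CPM (-0.34 ± 0.09, edgeR adjusted p = 0.0126), with treated replicate 3 lowest.

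SRSF7, a zinc-knuckle SR protein close to SRSF3, was the 1 SR gene called at 6 days. It read 299.7, 284.7 and 296.0 CPM with DMSO and 266.9, 257.1 and 239.7 CPM with STM2457, without overlap (log2 change -0.20 ± 0.06, edgeR adjusted p = 0.0227). The calls at 6 days depended on single libraries. Without DMSO replicate 1, 2 or 3 there were 2, 2 and 1 members called, and without STM2457 replicate 1, 2 or 3 there were 10, 3 and 7. Over all genes the shares called were 19.7, 19.8 and 19.3% and 27.7, 19.7 and 26.8%. HNRNPUL1 was lost without any DMSO library (adjusted p 0.0642 to 0.0937), HNRNPD without DMSO replicate 2 (0.0604) or 3 (0.0534), and SRSF7 without DMSO replicate 1 (0.103) or 3 (0.0902) or STM2457 replicate 2 (0.0624). HNRNPC stood at -0.18 ± 0.06 and missed the threshold (edgeR adjusted p = 0.0504), as did SRSF8 at 0.25 ± 0.10 (0.0726), HNRNPH2 at 0.20 ± 0.09 (0.124) and HNRNPH1 at -0.17 ± 0.07 (0.115). The median log2 change was -0.09 for SR genes, -0.03 for hnRNP genes and -0.00 for all genes. Beside these changes 4 of 8 neuroblastoma markers rose and 2 fell at 6 days, and 2 of the 5 stroma and blood genes tested fell, COL1A1 by -1.0 ± 0.11 and PDGFRB by -0.32 ± 0.08. Their part in the result was not tested.

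**Figure D1:**
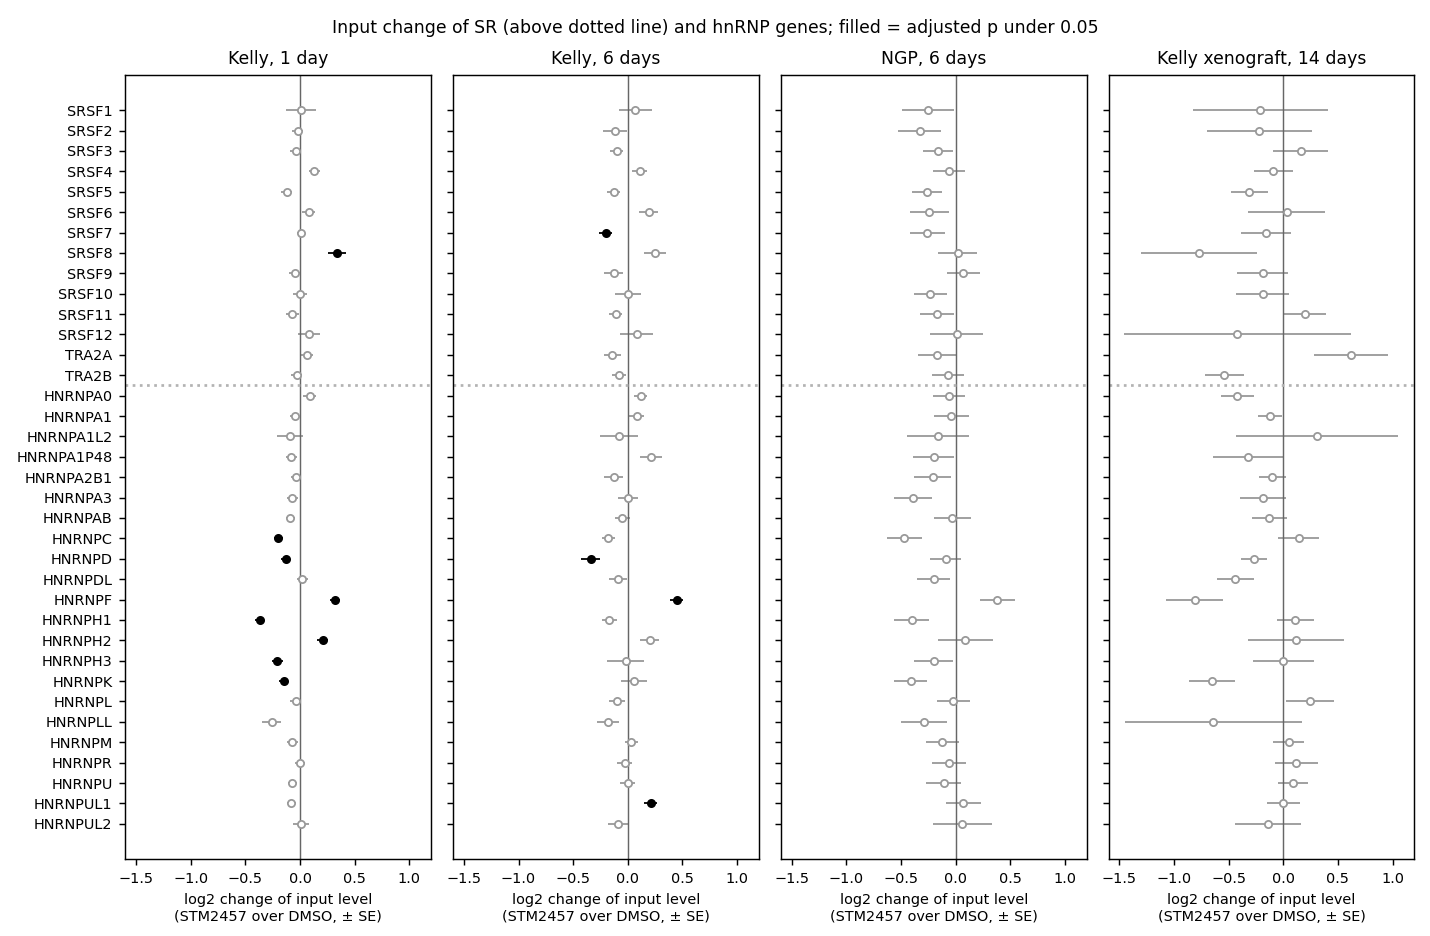
Log2 change of input level with STM2457 against DMSO, with 1 panel for each experiment. Tested SR genes lie above the dotted line and tested hnRNP genes below it, without HNRNPCL1. Points are edgeR estimates, bars are ± 1 SE, and filled points have an adjusted p under 0.05: 8 members in Kelly cells at 1 day, 4 at 6 days and none in NGP or the xenografts.

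In NGP cells at 6 days no member was called in the inputs, where 4.23% of 12289 genes tested were. By edgeR 5 members, all hnRNP genes, and 2154 genes in all reached an unadjusted p under 0.05. DESeq2 called 1 member and 6.09% of all genes. HNRNPC read 983.5, 1223.4 and 1038.2 CPM with DMSO and 609.4, 834.6 and 895.5 CPM with STM2457. The groups did not overlap, and the log2 change was -0.47 ± 0.16 (edgeR adjusted p = 0.106). HNRNPK, the member that DESeq2 called, read 510.7, 599.8 and 575.0 CPM against 392.5, 428.3 and 451.1 CPM. Its change was -0.41 ± 0.15 (edgeR adjusted p = 0.124, DESeq2 adjusted p = 0.0359). HNRNPF was at 0.38 ± 0.16 (edgeR adjusted p = 0.197) and HNRNPH1 at -0.40 ± 0.16 (0.163). Of the 37 members tested, 30 had a log2 change below 0, with medians of -0.17 for SR genes and -0.12 for hnRNP genes, while 50.8% of all genes were above 0 with a median of 0.01. With all 22 inputs in 1 fit 3 members were called, HNRNPC (adjusted p = 0.0148) and HNRNPK (0.0279) among them, beside 8.9% of 14224 genes.

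In the xenografts no member was called in the inputs, where 0% of 11329 genes were. By edgeR 5 members and 968 genes in all reached an unadjusted p under 0.05, and with DESeq2 no member was called. HNRNPF read 118.2 and 160.6 CPM in vehicle tumours and 69 and 90.7 CPM in treated tumours, so both treated libraries lay below both controls. The log2 change was -0.81 ± 0.26 (edgeR adjusted p = 0.532), whereas in each of the 3 cell experiments its estimate was above 0. HNRNPK read 155.4 and 188.5 CPM against 107.4 and 111.9 CPM (-0.65 ± 0.21, edgeR adjusted p = 0.532). TRA2B, an activator of exon inclusion, was at -0.54 ± 0.18 (0.532). Leaving out the first or the second STM2457 library brought the count of called members to 6 and 2. The shares of all genes called were then 15.7% and 5.3%. The fit of all 22 inputs called 7, including HNRNPF (adjusted p = 0.00133) and HNRNPK (0.00468), and 17.9% of 14224 genes. The medians were -0.19 for SR genes, -0.11 for hnRNP genes and -0.01 for all genes.

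**Figure D2:**
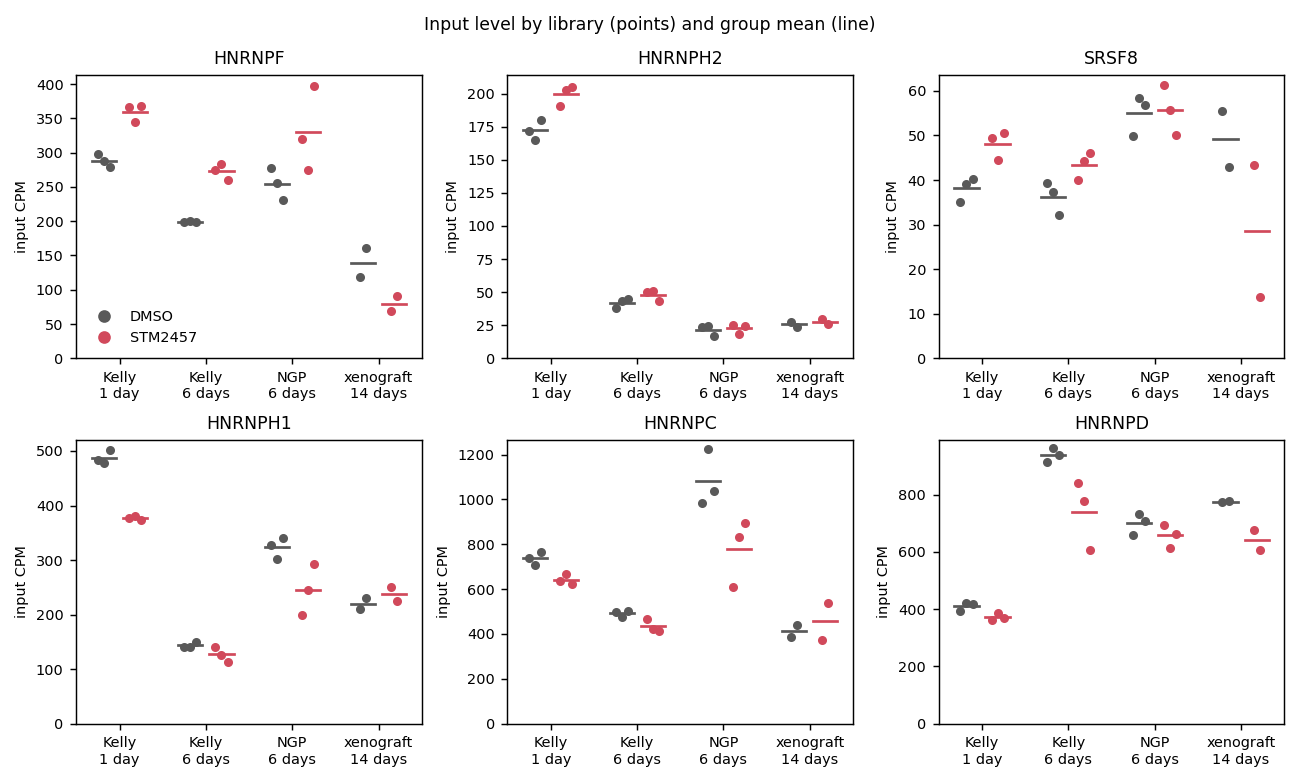
Input CPM of HNRNPF, HNRNPH2, SRSF8, HNRNPH1, HNRNPC and HNRNPD in each library, DMSO and STM2457 side by side in each experiment; points are libraries and lines are group means. HNRNPF with STM2457 lies above DMSO in Kelly cells at 1 day (344.9 to 368.1 against 278.8 to 298.2 CPM) and at 6 days, and below it in the xenografts.

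The difference between responses was tested in joint fits. Between 6 days and 1 day in Kelly cells, 1 member of 37 was called, against 8.41% of 13773 genes: HNRNPUL1 responded more at 6 days by 0.31 ± 0.08 on the log2 scale (edgeR adjusted p = 0.0159). At 1 day its inputs had read 563.3, 539.1 and 520.6 CPM with DMSO and 511.4, 509.4 and 518.3 CPM with STM2457, which lies on the other side of its rise at 6 days. The HNRNPF and HNRNPH1 responses were not shown to differ between the durations, with differences of 0.15 ± 0.08 (edgeR adjusted p = 0.243) and 0.23 ± 0.09 (0.124). Leaving out 6-day STM2457 replicate 3 raised the count from 1 to 5, with 9.95% of all genes called. Between Kelly and NGP cells at 6 days no member of 37 was called, against 1.36% of 13448 genes. There 2 members, HNRNPK at 0.48 ± 0.19 (edgeR adjusted p = 0.262) and SRSF6 at 0.45 ± 0.19 (0.31), and 1747 genes in all reached an unadjusted p under 0.05, and with DESeq2 no member was called.

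The next comparison was RIP over input in the DMSO groups, in which a log2 ratio above 0 means that more of a gene's reads were in the pull-down than in the input, relative to all other genes. A gene was called only with an adjusted p under 0.05 and a ratio of at least 2-fold. In Kelly cells at 1 day 5 members of 36 were enriched and 22 depleted, against 26.3% and 29.1% of 13669 genes. At 6 days 4 were enriched and 22 depleted, against 25.8% and 27.3% of 13324 genes. In NGP 10 of 37 were enriched and 5 depleted, against 20.9% and 19% of 13088 genes. In the xenografts 1 was enriched and 1 depleted, against 1.61% and 2.15% of 12626 genes. Depletion in Kelly cells thus covered most members of both classes: 8 of 14 SR genes and 14 of 22 hnRNP genes at 1 day, and 10 and 12 at 6 days. Without either xenograft DMSO library neither member was called there, and without either STM2457 library the xenograft count was 6. Over all genes none was called without either DMSO library, and 5.98 and 7.47% without either STM2457 library.

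The median log2 ratio at 1 day was -1.34 for SR genes, -1.45 for hnRNP genes and -0.07 for all genes. At 6 days these medians were -2.00, -1.78 and -0.10. In NGP they were 0.23, 0.45 and 0.08, and in the xenografts -1.11, -0.11 and -0.16. The members thus lay well below all genes in both Kelly cell experiments and not in NGP. This holds for ratios relative to all genes in the same library. Scaled instead on 13 mRNAs encoded by the mitochondrial genome, the all-gene medians moved to 1.57, 4.77, 0.86 and 2.02 and the members' medians to 0.23, 3.09, 1.08 and 1.48 in Kelly cells at 1 day, at 6 days, in NGP and in the xenografts. On that scale the members still lay below all genes in the Kelly experiments. At 1 day 11 members were enriched and 4 depleted, beside 6958 and 1115 of 13669 genes. At 6 days the counts were 29 and 1, beside 11065 and 64 of 13324 genes. The direction of single depleted members is thus relative to the scaling.

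Of the SR genes, SRSF8 was the 1 called enriched at 1 day. Its RIP libraries read 155.0, 148.1 and 170.8 CPM and its inputs 34.7, 37.8 and 39 CPM in the same fit, and no RIP library came near an input. The log2 ratio was 2.09 ± 0.10 (edgeR adjusted p = 5.87e-10), then 1.43 ± 0.18 at 6 days (2.24e-05) and 1.28 ± 0.19 in NGP (3.94e-06). In the xenografts it was 1.08 ± 0.71 and not called (0.404). SRSF12 stood at 0.99 ± 0.20 (0.000571), just short of 2-fold, and with RLE factors or DESeq2 there were 2 SR genes called. SRSF3 was depleted in Kelly cells. Its ratio was -2.19 ± 0.13 at 1 day and -4.31 ± 0.40 at 6 days, where its 3 DMSO RIP libraries read 11.6, 4.67 and 8.95 CPM. It was -0.81 ± 0.19 in NGP, short of 2-fold although the adjusted p was 0.00115, and -2.89 ± 0.70 in the xenografts (edgeR adjusted p = 0.0554; DESeq2 adjusted p = 0.000889). SRSF10 stood at -1.37 and -2.07 in Kelly cells and at 0.93 in NGP. SRSF1 stood at -1.32 at 1 day, and its 6-day value of -2.12 ± 1.03 was not called.

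SRSF7 and SRSF9 were depleted in both Kelly cell experiments, at -2.49 and -3.15 for SRSF7 and -3.11 and -1.92 for SRSF9, and SRSF9 also in NGP, at -1.08. TRA2B was at -2.58 ± 0.08 at 1 day (edgeR adjusted p = 1.56e-11), with RIP libraries at 52.1, 65.3 and 58.9 CPM against inputs at 349.6, 346.1 and 355.1 CPM. Its partner TRA2A was at -2.22. SRSF2 had the lowest fitted value of all, -7.70 at 6 days, but that estimate rests on 3, 1 and 1 counts in the RIP libraries against 386, 481 and 350 in the inputs, and it was -0.08 in NGP. SRSF4, one of the longer SR proteins, was called enriched in NGP, at 1.40 ± 0.19 (1.17e-06), and stood at 0.28, 0.13 and 0.89 in the other experiments. In the comparison of lines given later its ratio was higher in NGP than in Kelly cells by 1.11 ± 0.25 (0.00216).

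Among the hnRNP genes HNRNPF had nearly the same ratio everywhere. The 1-day DMSO RIP libraries read 1154.7, 1164.9 and 1165.7 CPM against inputs of 296.0, 277.2 and 270.6 CPM, and the NGP RIP libraries 895.0, 980.8 and 999.3 CPM against 283.2, 260.2 and 238.4 CPM. The log2 ratios were 2.05 ± 0.06 (edgeR adjusted p = 9.22e-12), 1.96 ± 0.23 at 6 days (1.61e-05), 1.88 ± 0.18 in NGP (1.52e-08) and 1.98 ± 0.44 in the xenografts (0.0446). HNRNPF was the 1 member called enriched in all 4 experiments, and its values spanned 0.17. That likeness holds relative to all genes: with mitochondrial factors its ratios were 3.68, 6.96, 2.63 and 4.25, the last not called (0.0656). The xenograft call was narrow: the adjusted p was 0.0532 with RLE size factors and 0.563 to 0.576 without either DMSO library. HNRNPH2 was enriched at 1 day, with RIP libraries at 424.9, 480.3 and 387.0 CPM against inputs at 170.3, 159.1 and 174.7 CPM (1.36 ± 0.08, edgeR adjusted p = 4.07e-09), and in NGP (1.67 ± 0.26, 8.58e-06). At 6 days it was at 0.73 ± 0.37 (0.114).

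HNRNPH1, whose window around GGACT matches that of HNRNPF at 25 positions, was depleted in Kelly cells. Its 1-day DMSO RIP libraries read 79.4, 96.7 and 107.3 CPM, a log2 ratio of -2.33 ± 0.12 (edgeR adjusted p = 1.1e-09), and its 6-day libraries read 7.27, 8.6 and 12.4 CPM, a ratio of -3.86 ± 0.47 (1.97e-05). In NGP RIP and input were close, at 300.1, 529.6 and 531.1 CPM against 334.6, 307.5 and 351.4 CPM (0.45 ± 0.21, 0.0651). HNRNPH3 was at -1.32 ± 0.12 (4.12e-07) and -2.13 ± 0.46 (0.00175) in Kelly cells and at 1.60 ± 0.23 in NGP (4.09e-06). Each of these 4 genes holds 2 copies of GGACT in the coding region.

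**Figure D3:**
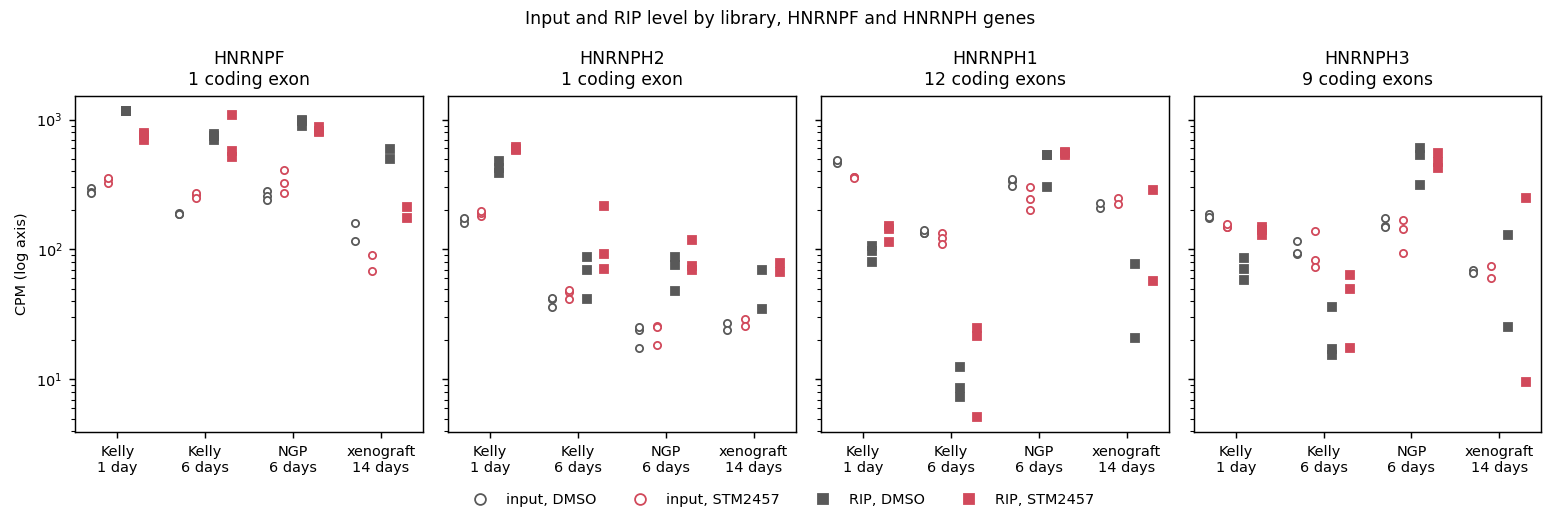
Input and RIP CPM of HNRNPF, HNRNPH2, HNRNPH1 and HNRNPH3 in every library on a log axis, by experiment and treatment. HNRNPF RIP values lie above inputs in every experiment, while HNRNPH1 RIP values lie far below inputs in Kelly cells (7.27 to 12.4 CPM at 6 days with DMSO) and near or above them in NGP.

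The ratios of HNRNPK, HNRNPA1 and HNRNPA2B1, all abundant, differed widely between Kelly and NGP cells. HNRNPA2B1 was at -1.48 ± 0.07 at 1 day (edgeR adjusted p = 4.46e-10) and -2.73 ± 0.42 at 6 days (0.000135). In NGP its RIP libraries read 2167.2, 4008.3 and 4516.3 CPM against inputs of 1036.1, 1194.7 and 1118.3 CPM, a ratio of 1.67 ± 0.24 (4.37e-06). All 3 NGP RIP libraries were above all inputs, the reverse of Kelly cells. HNRNPK was at -2.81 ± 0.15 at 1 day (1.76e-09), -4.02 ± 0.27 at 6 days (1.72e-07) and 0.47 ± 0.22 in NGP (0.074). HNRNPA1 was at -2.61, -3.38 and 0.46 in the same order. HNRNPC was lower in RIP than in input in every experiment, at -2.51 ± 0.16, -2.74 ± 0.27, -0.68 ± 0.21 and, in the xenografts, -2.47 ± 0.47 (0.0295). This was the 1 depleted call in the xenografts, and it was lost without either DMSO library (adjusted p 0.298 and 0.615). Of the copies related to HNRNPA1, HNRNPA1L2 had the ratios 1.62, 1.66, 1.23 and 0.68 in Kelly cells at 1 and 6 days, NGP and the xenografts, and HNRNPA1P48 a mean of -2.55, with the division of reads uncertain. HNRNPL, a binder of CA repeats, was called depleted in all 3 cell experiments, at -3.09, -2.22 and -1.29.

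The members called enriched at 1 day were HNRNPA0, HNRNPA1L2, HNRNPF, HNRNPH2 and SRSF8, and these are the 5 tested members whose coding sequence lies in 1 exon. That feature was looked at with the ratios already known and is a description. Over the members with several coding exons, 3 of 30 had a ratio above 0 at 1 day, and the medians were 1.62 for 1 coding exon and -1.47 for several. At 6 days they were 1.43 and -2.02, in NGP 1.25 and 0.34, and in the xenografts 1.02 and -0.78. In NGP the shares above 0 were close, at 4 of 6 and 18 of 30, with HNRNPA0 at -0.68 and HNRNPCL1 at -2.39 among those with 1 coding exon. The same split is seen over all genes, for which the medians at 1 day were 2.07 and -0.23, with 86.4% and 46.2% above 0, so it is not particular to these families. GGACT was found in the transcripts of 35 of the 40 members that GENCODE 44 names and of 88.5% of all genes matched, searched on the transcript strand, with a median of 0.675 copies per kilobase in members and 0.923 in all genes. Across 35 members at 1 day, Spearman's rho of the ratio was 0.6 with the percent of the transcript held by its longest exon and -0.21 with GGACT per kilobase. At 6 days, in NGP and in the xenografts rho with that percent was 0.33, 0.27 and 0.3. Over all genes it was 0.33 at 1 day and 0.29, 0.3 and 0.23 in the other experiments, in the same order. The points share their libraries.

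**Figure D4:**
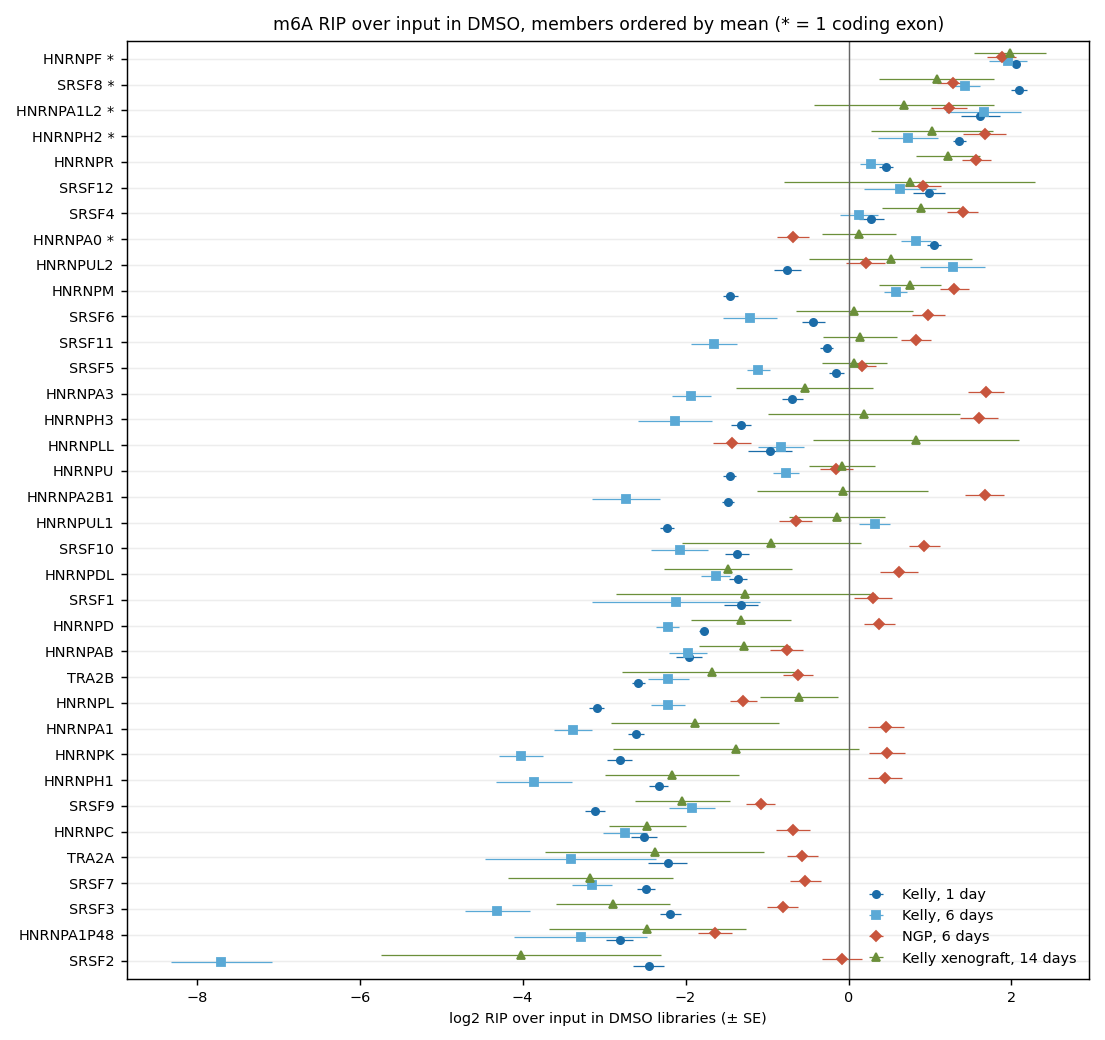
Log2 ratio of RIP over input in the DMSO groups for the 36 members tested in all 4 experiments, ordered by their mean over the experiments, with ± 1 SE; an asterisk marks members with 1 coding exon. HNRNPF lies at the top with 1.88 to 2.05 in all 4 experiments, and SRSF2 at the bottom, where the 6-day value rests on 1 to 3 counts per RIP library.

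How far NGP and Kelly cells differ was tested for the DMSO ratios at 6 days, a comparison added after these values were seen. Of 37 members 25 had a higher ratio in NGP and 4 a lower one, against 23.9% and 22.2% of 13684 genes. The SR genes gave 11 higher and none lower of 14, with a median difference of 2.13 on the log2 scale, and the hnRNP genes 14 higher and 4 lower of 23, with a median of 1.04, against 0.08 over all genes. HNRNPK differed by 4.33 ± 0.38 (edgeR adjusted p = 2.1e-06), HNRNPA2B1 by 4.24 ± 0.35 (1.78e-06) and HNRNPH1 by 4.14 ± 0.33 (1.59e-06). SRSF3 differed by 3.33 ± 0.38 (1.35e-05) and SRSF10 by 2.83 ± 0.32 (1.34e-05). No such difference was called for HNRNPF at -0.26 ± 0.20 (0.317), SRSF8 at -0.32 ± 0.23 (0.286) or HNRNPH2 at 0.77 ± 0.40 (0.134). The lower ratios in NGP were those of HNRNPA0 (-1.69 ± 0.27, 0.000176), HNRNPUL2, HNRNPUL1 and HNRNPLL. Mitochondrial factors in this fit scaled the RIP libraries of both lines to a common mean mitochondrial level of the inputs of both lines. Values on that scale therefore also hold any difference in that level between the lines. They are not differences of the ratios fitted within each line. With these factors the members' median was -1.76 and that of all genes -3.01. Then 1 member was higher and 18 lower, beside 227 higher and 8959 lower of 13684 genes. The direction thus holds only relative to the other genes. On that scale HNRNPK was at 1.34 (0.0597), HNRNPA2B1 at 1.01 (0.234) and SRSF3 at 0.07 (0.956), none of them called, SRSF10 at -0.32 and SRSF4 at -2.02. For HNRNPA1 the same fit gave a difference of 0.52. Scaled to each line's own inputs, its ratio was 1.48 in Kelly cells and 1.14 in NGP. Cell line and experiment cannot be told apart here.

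The last comparison was the change of the ratio with STM2457, that is RIP with treatment over RIP without it, beyond the change of the input. At 1 day in Kelly cells the ratio rose for 20 members of 36 and fell for 3, against 9.53% and 7.62% of 13669 genes. The median log2 change was 0.64 for SR genes, 0.62 for hnRNP genes and -0.03 for all genes, and 32 of 36 members were above 0 against 48.3% of all genes. The 20 were 6 SR genes and 14 hnRNP genes. The median ratio of the members moved from -1.41 with DMSO to -0.83 with STM2457. The DMSO ratio and the change share the DMSO libraries, so their relation is not given as a result. Without single libraries the count of calls was 17 to 23.

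TRA2B changed most among the SR genes at 1 day. Its RIP libraries read 52.1, 65.3 and 58.9 CPM with DMSO and 144.2, 144.8 and 142.3 CPM with STM2457, with inputs of 351.8, 331.0 and 319.7 CPM under treatment. The groups were far apart in RIP and close in input (log2 change of the ratio 1.36 ± 0.11, edgeR adjusted p = 7.09e-06). SRSF7 RIP rose from 69.2, 60.3 and 63.8 CPM to 117.0, 168.5 and 146.6 CPM (1.19 ± 0.15, 0.000194). SRSF3 RIP rose from 69.2, 81.3 and 65.9 CPM to 156.9, 162.7 and 109.3 CPM (1.06 ± 0.18, 0.00162). SRSF9, SRSF11 and SRSF5 were called at 0.81, 0.71 and 0.47. SRSF10 was not called: its RIP libraries overlapped, at 57, 56.7 and 82.9 CPM against 78.8, 71.8 and 59.5 CPM (0.13 ± 0.21, 0.76). SRSF8 was the 1 SR gene whose ratio fell, by -0.68 ± 0.13 (0.00382), with RIP at 155.0, 148.1 and 170.8 CPM against 122.2, 116.5 and 125.0 CPM.

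HNRNPA2B1 RIP libraries read 530.5, 606.0 and 604.4 CPM with DMSO and 1207.7, 1332.7 and 1148.4 CPM with STM2457. All treated libraries were far above all controls (1.15 ± 0.09, edgeR adjusted p = 7.24e-06). HNRNPA1 RIP rose from 183.3, 212.2 and 173.4 CPM to 473.2, 366.3 and 366.4 CPM (1.17 ± 0.14, 9.16e-05). HNRNPH3 RIP rose from 70.9, 58.5 and 86.3 CPM to 128.7, 148.8 and 140.0 CPM (1.2 ± 0.17, 0.000355). HNRNPC, HNRNPK and HNRNPL changed by 1.03 ± 0.22 (0.00655), 1.03 ± 0.20 (0.00326) and 1.02 ± 0.12 (0.0001). HNRNPC was just short of the threshold without the first DMSO library (0.0509). The other called hnRNP genes ranged from HNRNPA1P48 at 0.95 and HNRNPD at 0.93 to HNRNPU, a nuclear scaffold protein, at 0.41.

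HNRNPF went the other way at 1 day. Its RIP libraries read 1154.7, 1164.9 and 1165.7 CPM with DMSO and 762.3, 785.0 and 697.1 CPM with STM2457, while its inputs went from 296.0, 277.2 and 270.6 CPM to 349.0, 326.0 and 352.9 CPM. Neither pair of groups overlapped, and the ratio changed by -0.92 ± 0.08 (edgeR adjusted p = 1.43e-05). HNRNPR RIP read 488.8, 494.0 and 544.5 CPM against 307.2, 344.7 and 256.5 CPM, a change of -0.72 ± 0.13 (0.00243). Side by side at 1 day, HNRNPF and SRSF8 were called enriched under DMSO, lower in ratio with STM2457 and higher in input, 3 values that share the DMSO libraries. The other members called enriched did not share this. HNRNPH2, also higher in input, had a ratio change of 0.29 ± 0.11 (edgeR adjusted p = 0.0841), with RIP higher in every treated library. HNRNPA0 was at 0.07 and HNRNPA1L2 at -0.13, neither called. Scaled on the mitochondrial mRNAs, the members' median change at 1 day was -0.81 and that of all genes -1.47. No member was called higher and 26 were called lower, beside 13 higher and 8356 lower of 13669 genes. On that scale HNRNPF remained below the members' median, at -2.36, and the genes called higher on the main scale turned to values such as -0.08 for TRA2B, -0.28 for HNRNPA2B1 and -0.38 for SRSF3. The members' median lay above that of all genes on both scales, but the direction of single members depends on the scaling.

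**Figure D5:**
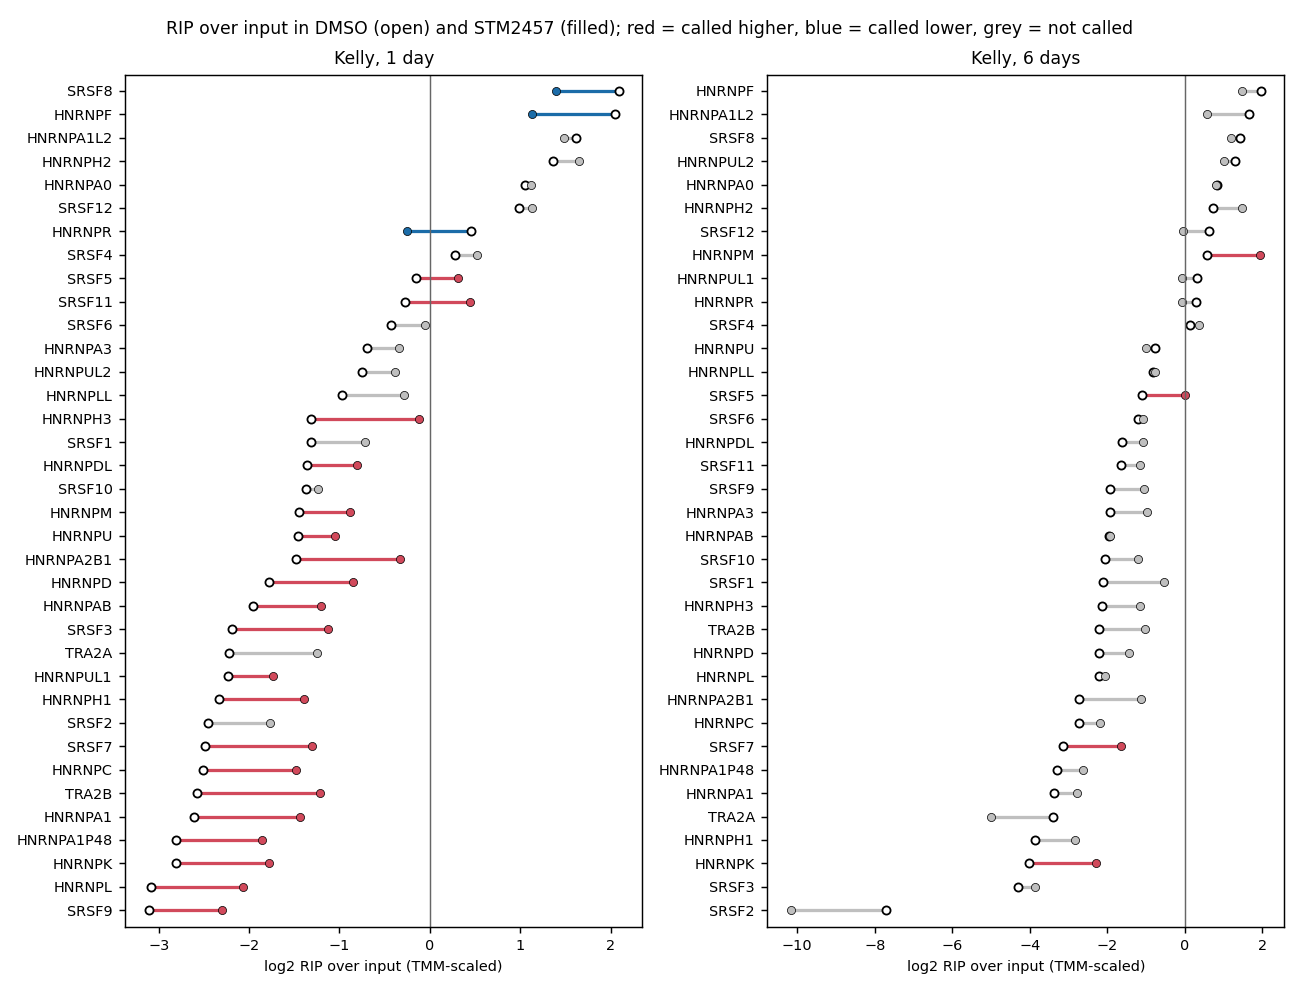
Log2 ratio of RIP over input with DMSO (open) and with STM2457 (filled) for each member in Kelly cells at 1 day and 6 days; red marks members called higher with STM2457, blue called lower and grey not called. At 1 day 20 members are red and HNRNPF, HNRNPR and SRSF8 are blue, and at 6 days 4 are red; the SRSF2 values at 6 days rest on 0 to 3 RIP counts per library.

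At 6 days in Kelly cells the ratio rose for 4 members of 36 and fell for none, against 1.26% and 0.803% of 13324 genes. HNRNPM, a repressor of exon inclusion, read 756.3, 798.5 and 769.0 CPM in DMSO RIP and 1659.6, 2314.0 and 2124.8 CPM in STM2457 RIP, with inputs that overlapped (1.35 ± 0.20, edgeR adjusted p = 0.015). SRSF5 RIP rose from 193.2, 204.6 and 182.1 CPM to 314.9, 444.3 and 390.8 CPM (1.11 ± 0.20, 0.0206). All treated libraries of both genes were above all controls. HNRNPK RIP rose from 23.4, 22.3 and 12.4 CPM to 64.4, 80.7 and 55.2 CPM (1.72 ± 0.35, 0.0313) and SRSF7 from 33.1, 37.5 and 23.6 CPM to 49.7, 89.3 and 94.6 CPM (1.5 ± 0.33, 0.0377). HNRNPA2B1 was not called, and its treated RIP libraries were scattered, at 916.2, 492.2 and 196.3 CPM against 157.1, 236.2 and 183.2 CPM (1.60 ± 0.56, 0.172). HNRNPF was at -0.50 ± 0.32 (0.495), with its first treated RIP library at 1075.4 CPM and the others at 572.4 and 518.9 CPM, below the controls.

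The calls at 6 days were lost over nearly the whole table without any 1 DMSO library: no member was called, and 0, 0 and 6 genes in all without DMSO replicate 1, 2 or 3, where 275 had been. Without STM2457 replicate 1, 2 or 3 the members' counts were 8, 2 and 1, beside 5.98, 1.17 and 0.943% of all genes. The median change was 0.47 for SR genes, 0.55 for hnRNP genes and 0.20 for all genes, and 25 of 36 members were above 0 against 59.3% of all genes. With mitochondrial factors the members' median was -1.54 and that of all genes -1.93. No member was higher and 11 were lower, beside 5 higher and 3843 lower of 13324 genes. The median ratio of the members moved from -1.92 with DMSO to -1.08 with STM2457.

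In NGP no member of 37 and 0% of 13088 genes were called for a change of the ratio. By edgeR 7 members and 764 genes in all reached an unadjusted p under 0.05, and with DESeq2 no member was called. The estimates were above 0 for 32 of 37 members, against 49.8% of all genes, with medians of 0.21 for SR genes, 0.33 for hnRNP genes and -0.00 for all genes. HNRNPC was at 0.99 ± 0.29 and HNRNPF at -0.57 ± 0.25 (edgeR adjusted p = 0.839 for both). SRSF10 was at -0.07 and SRSF3 at 0.61. In the xenografts no member of 36 and 0% of 12626 genes were called. By edgeR no member and 809 genes reached an unadjusted p under 0.05, and with DESeq2 no member was called either. The estimates were above 0 for 33 of 36 members, against 53% of all genes, with wide errors, as for HNRNPH1 at 1.70 ± 1.12 and HNRNPK at 1.12 ± 2.11. The HNRNPF ratio was at -0.69 ± 0.61, with RIP libraries at 597.0 and 497.2 CPM against 175.1 and 212.3 CPM and an input that was also lower.

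Genes that work with these families were taken as lists chosen with earlier results known. In the inputs at 1 day the core spliceosome, the small nuclear ribonucleoprotein proteins and their assembly partners, gave 14 falls and no rise of 36 genes, where 8.06% of all genes fell and 9.41% rose, among them PRPF19 (-0.31 ± 0.04, edgeR adjusted p = 0.000103). Kinases that phosphorylate SR proteins gave 1 fall of 8, and coactivators with RS domains 1 rise and 1 fall (RNPS1, -0.26 ± 0.05, 0.00102) of 18. hnRNP proteins under other symbols gave 2 falls of 12, among them the poly(C)-binding protein PCBP2 (-0.31 ± 0.04, 8.47e-05). Nonsense-mediated decay factors gave 1 rise, SMG8 (0.47 ± 0.06, 4.15e-05), of 10. At 6 days, where 11.9% of all genes rose and 14.7% fell, the decay factors gave 5 rises of 10, UPF2 among them (0.58 ± 0.11, 0.000691), and RS coactivators 6 rises and 1 fall of 18, with SRRM2 at 0.41 ± 0.06 (0.000104). The core spliceosome then gave 3 rises and 9 falls, with SNRPG at -0.75 ± 0.06 (1.53e-07).

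Splicing regulators of neurons and other tissues gave 1 rise of 19 at 1 day and 7 rises and no fall of 18 at 6 days. Of all genes 9.41% rose at 1 day and 11.9% at 6 days. MBNL2 changed by 1.19 ± 0.22 (edgeR adjusted p = 0.000631), and the neuronal factors RBFOX1 and NOVA2 by 0.67 ± 0.16 (0.00577) and 0.63 ± 0.10 (0.00023). SRRM4, a neuronal RS-domain activator of microexons counted with the coactivators, changed by 0.34 ± 0.09 (0.00796), and CLK1, a kinase of SR proteins, by 0.45 ± 0.12 (0.00887). In NGP 4 of 36 core spliceosome genes fell, SNRPD1 (-0.87 ± 0.21, 0.0179) and SNRPC (-0.68 ± 0.15, 0.00807) among them, beside 266 of all 12289 genes. No gene of the other lists named here was called. In the xenografts none was called. For the change of the ratio at 1 day, where 9.53% of all genes rose and 7.62% fell, 21 of 36 core spliceosome genes rose and none fell, with SNRPD2 at 1.63 ± 0.07 (3.45e-07), and RS coactivators gave 9 rises and 2 falls. Those counts lie beside the 20 rises and 3 falls of the members, and the difference between the lists was not tested.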

How the data were processed

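The authors deposited raw counts per gene for 44 libraries. Per the file headers, featureCounts counted read pairs by exon and gene name on the protein-coding part of a GENCODE annotation, with no strand or multi-overlap option. The submitters' processing notes list FastQC 0.11.5, Trimmomatic 0.36, HISAT2 2.1.0, Subread 1.5.3 and deepTools 2.0, and GRCh38 is the build. Spike-ins were added per the labels' protocols and are not analysed here. For the xenografts, the sources used here do not give how mouse reads were handled.

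Counts were fitted over all genes with edgeR 4.0.16 (TMM factors, filterByExpr, quasi-likelihood test, Benjamini-Hochberg adjustment, threshold 0.05), separately for each experiment: inputs for the input change, and inputs with RIP libraries for the ratio and its change (interaction). Responses were compared in joint fits. Printed CPM use the TMM factors of the fit concerned, and TPM use the lengths in the files. Depth is given in the report. Alternatives were DESeq2 1.42.0, RLE factors, no filter, mitochondrial factors, a replicate block, 1 fit of all inputs and leaving out libraries. Code was tested on simulated data. No 2 replicates of a group agreed within sampling noise (over 40 replicate pairs, chi-square divided by its degrees of freedom was at least 2.73). Members and lists were chosen with earlier results of these data known. Among members with a mean log2 CPM of at least 2, the text names the 3 called rises and falls of largest size in each comparison (where none was called, the 2 with the smallest p), the 3 highest and 3 lowest mean DMSO ratios and the 2 of widest range, SRSF1, SRSF3, SRSF10, HNRNPA1, HNRNPA2B1, HNRNPC and HNRNPK, others for a role, and at most 3 called genes of each list. Gene models and sequences come from GENCODE 44.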

Additional observations from a re-analysis of the deposited data

Results flagged for a closer look

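The input response of HNRNPUL1 to STM2457 differed between 6 days and 1 day in Kelly cells by 0.31 on the log2 scale, in a test of the difference itself.

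In 4 members the treated xenograft libraries all lay on the opposite side of their controls from those of a Kelly cell experiment, and these differences were not tested. Groups of 2 libraries separate easily, and the share over all genes was not computed. In the xenograft inputs 1 SR gene lay higher without overlap, and 4 SR and 8 hnRNP genes lower. With no share over all genes beside them, these counts are not a result about the members. The xenograft input change was -0.81 for HNRNPF, whose inputs rose in Kelly cells at both durations. It was -0.42 for HNRNPA0 and -0.32 for HNRNPA1P48, both of which lay higher with STM2457 in all 3 treated Kelly libraries at 6 days. It was 0.62 for TRA2A, which lay lower in all 3.

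Tests of the DMSO ratio of RIP over input between NGP and Kelly cells at 6 days called 25 of 37 members higher in NGP and 4 lower. Over all 13684 genes the shares were 23.9% and 22.2%. Those higher included HNRNPK (4.33 on the log2 scale), HNRNPA2B1 (4.24), HNRNPA1 (3.67), SRSF3 (3.33), SRSF10 (2.83), SRSF1 (2.24), HNRNPC (1.89) and HNRNPA1P48 (1.48). HNRNPH1, given above, was also among them, and HNRNPA0 was among the lower ones. The value for SRSF2 was 7.45, on Kelly RIP counts of 3, 1 and 1. With mitochondrial factors, set to an input level common to both lines, SRSF10, SRSF1, HNRNPC and HNRNPA1P48 changed sign, to -0.32, -0.18, -1.17 and -1.52. HNRNPK, HNRNPA2B1, HNRNPA1 and SRSF3 were no longer called, at 1.34, 1.01, 0.52 and 0.07, while SRSF2 was at 4.70. Which genes changed sign depends on that level. Scaled to each line's own inputs, HNRNPA1 was lower in NGP (1.14) than in Kelly cells (1.48). The SRSF1 call was also lost without Kelly DMSO replicate 1 or any 1 NGP DMSO library, and that of HNRNPA1P48 without Kelly DMSO replicate 2 or NGP DMSO replicate 3.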

How the results depend on the processing

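Counts of called members under other processing were as follows, and the cause of each shift was not tested. The percent of all genes called stands in brackets. With DESeq2 they were 1 for the NGP inputs (6.09%). They were 2 for the difference of responses between 6 days and 1 day (10.2%) and 7 for the xenograft DMSO ratio (17.4%). With RLE factors they were 2 (8.2%) and 1 (3.73%) for the last pair, and without the low-count filter 4 (9.26%) and 6 (8.04%). With all 22 inputs in 1 fit they were 0 (0.183%) in Kelly cells at 1 day, 1 (5.56%) at 6 days, 3 (8.9%) in NGP and 7 (17.9%) in the xenografts. Mitochondrial factors gave 15 (59.1%) for the DMSO ratio at 1 day, 0 (0%) for that of the xenografts and 11 (28.9%) for the ratio change at 6 days. They gave 19 (67.1%) for the ratio difference between lines, which was itself added after seeing the data. There both lines were scaled to a common mitochondrial input level. Without the filter the gap of SR minus hnRNP medians at 6 days was -0.81 for the DMSO ratio (main value -0.22) and 0.34 for its change (main value -0.08).

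Correlations of same-numbered libraries ran from -0.161 to 0.216, so the numbers do not pair the samples. A replicate block gave 1 call in the NGP inputs, beside 7.08% of all genes, and HNRNPC had -0.49 there (edgeR adjusted p = 0.0194). It gave 0 for the ratio change at 6 days, where no gene at all was called.

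Leaving out 1 library gave 6 to 10 calls for the Kelly inputs at 1 day (9.32 to 18.1% of all genes). At 6 days it gave 1 to 10 (19.3 to 27.7%) and in NGP 0 to 0 (1.02 to 3.66%). For the difference of responses the ranges were 1 to 5 (durations, 5.83 to 11%) and 0 to 0 (lines, 0.686 to 2.01%). For the DMSO ratio they were 27 to 28 (50.7 to 57.5%), 22 to 26 (43.2 to 56.8%) and 13 to 17 (37.3 to 39.5%). For the ratio change they were 17 to 23 (10.4 to 18%), 0 to 8 (0 to 5.98%) and 0 to 0 (0 to 0.00754%) in the same order. For the ratio difference they were 25 to 30 (34.4 to 44.5%). In the xenografts leaving out 1 library leaves 1 in a group, so no range is given here.

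Mitochondrial factors reversed 29 single-gene values. For the DMSO ratio at 1 day these were HNRNPA2B1 0.15, SRSF1 0.31 and SRSF10 0.26, and at 6 days HNRNPA1 1.48, HNRNPA1P48 1.52, HNRNPA2B1 2.19, HNRNPC 2.11, HNRNPK 0.66, SRSF10 2.81 and SRSF3 0.67. For the ratio change at 1 day they were HNRNPA1 -0.26, HNRNPA2B1 -0.28, HNRNPC -0.42, HNRNPH3 -0.24, HNRNPK -0.40, SRSF1 -0.84, SRSF10 -1.30, SRSF3 -0.38, SRSF7 -0.26 and TRA2B -0.08, and at 6 days HNRNPK -0.21, HNRNPM -0.81 and SRSF7 -0.45. For the difference between lines, on a mitochondrial input level common to both, they were HNRNPA1P48 -1.52, HNRNPC -1.17, HNRNPH2 -2.51, SRSF1 -0.18, SRSF10 -0.32 and SRSF4 -2.02. No other alternative reversed a named gene. With DESeq2 137 single-gene values kept direction and side of the threshold and 5 passed it newly. The xenograft inputs were among the shallowest, and the biological coefficient of variation of the xenograft ratio fit was 0.99 with 2 libraries in a group.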
